A study of Mus musculus with 8 samples.

Results

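The cell line pB3 was compared with the cell line pB2, both derived from mammary tumours of MMTV-PyMT mice on the C57BL/6 background, in 4 of the 8 libraries of the series, 2 per line. The samples were chosen by their cell line label alone. In the MMTV-PyMT model the promoter of the mouse mammary tumour virus drives the polyoma virus middle T oncogene in mammary epithelium, so every cell of both lines descends from tissue that carries this transgene. Each line is a single culture-derived line, so line and tumour of origin cannot be told apart. The other 4 libraries come from the lines Epcam hi and 687g, which were made from MMTV-PyMT-Snail-IRES-YFP mice on the same background. These helped to estimate the spread of the fit and are cited only for a few levels. All lines were grown as adherent monolayers in DMEM/F12 medium with adult bovine serum, no treatment is named, and libraries were made from total RNA with an mRNA kit. The labels do not say whether replicates were separate cultures, so p-values cover only the variation among these libraries. The comparison asks which pathways and gene families differ between lines of 1 mouse model, in a series made to profile models of the epithelial-mesenchymal transition.

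Carcinomas of this model start from luminal mammary cells, the cells that line the ducts and, in lactation, secrete milk under the control of prolactin. Middle T binds Src, phosphatidylinositol 3-kinase and the adaptor Shc, and so feeds the same MAP kinase and Akt routes that growth factor receptors use. Lines derived from such tumours can keep luminal, secretory features or take on basal, migratory ones, which involve secreted proteases, matrix proteins and a changed set of receptors.

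The labelled epithelial origin was checked against 12 markers of mammary epithelium, of which 11 reached 1 CPM in at least 1 library of these lines and Krt5 did not. CPM is the read count of a gene scaled to a common library total. Their summed level was 1726 to 1835 CPM in pB2 and 3617 to 3870.0 CPM in pB3. Of the 11 tested markers, however, 7 fell and 4 rose, with a median log2 fold change of -1.06. The 4 rises were of keratins, with Krt18 at 229 and 196 CPM in pB2 and 1881 and 2069 in pB3, and Epcam, among the falls, stood at 579 and 553 CPM in pB2 and 278 and 264 in pB3. Markers of other cells were low: the 13 leukocyte markers summed to 0.741 to 1.33 CPM in pB2 and 2.76 to 2.98 in pB3, with Cd3d, Cd4, Cd8a, Cd79a, Itgam, Adgre1 and Ncr1 among those at 0 counts in all 4 libraries. The 10 endothelial markers summed to 5.55 to 8.06 CPM in pB2 and 0.941 to 1.04 in pB3, nearly all of it Erg in pB2. The 8 adipocyte markers summed to 1.11 to 1.91 and 0.194 to 0.403 CPM. The 12 fibroblast markers summed to 65.2 to 86.4 CPM in pB2 and 32.6 to 34.7 in pB3, with Col1a2, Lum, Dpt and Thy1 at 0 and Pdgfra the main part in pB2 only. Of the 5 fibroblast markers tested, 3 fell and 1 rose. The 10 markers of muscle and nerve summed to 2.15 to 2.60 CPM in pB2 and 4.77 to 5.77 in pB3. Since RNA came from whole cultures, fewer expressing cells and less RNA per cell cannot be told apart at any gene below.

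Total counts were 12442730 and 16895237 in pB2 and 15631003 and 15916987 in pB3, and the across-gene correlation of the replicate libraries was 0.992 for pB2 and 0.993 for pB3. CPM is not corrected for gene length, so levels are compared between lines and not between genes. A total of 15890 genes had enough counts to be tested. A gene is said to have risen or fallen where edgeR's quasi-likelihood test gave a Benjamini-Hochberg adjusted p under 0.05 for pB3 against pB2. By this rule 7116 genes, 44.8% of those tested, were called, with 3427 higher in pB3 (21.6%) and 3689 lower (23.2%). At least 4-fold changes were called for 1528 genes upward (9.62%) and for 1430 downward (9%). The median log2 fold change over all tested genes was 0.02, and the counts of each gene group below are to be read against these shares. For 1575 genes (9.91%) the 95% interval of the fold change stayed within 1.5-fold in both directions. Among the 2758 genes that reach 100 CPM in either line, 474 (17.2%) met that criterion and 1469 (53.3%) were called, so called genes outnumbered those held within 1.5-fold among abundant transcripts. Scaling by total counts in place of TMM, edgeR's scaling by a trimmed mean of ratios, moved the median log2 fold change by -0.20 and the split of calls to 2766 higher and 4591 lower. For the groups described below, counts of rises or falls that moved by over 1.5 times with this are given there. Smaller moves are mostly not given.

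Some genes were detected in 1 of the lines only. Genes with at most 3 counts over both libraries of a line and at least 10 CPM in the other numbered 86 for pB2 and 78 for pB3, and 80 and 72 of these encode proteins. The pB2 set was nearly private to that line: 84 of its 86 genes were under 10 CPM in both Epcam hi and 687g. Of the 78 genes seen only in pB3, 24 reached 10 CPM in Epcam hi and 35 in 687g, and 32 reached it in neither. In the pB2 set, Prlr, the prolactin receptor, had 55.6 and 83.8 CPM in pB2 and 0 and 0 in pB3, which makes pB2 at least 728-fold higher. Elf5, the factor that directs alveolar secretory cells, had 51.8 and 51.4 CPM in pB2 and 0 and 0 in pB3, at least 521-fold higher in pB2. Trp63, which marks basal cells, also belongs here, with 35.3 and 33.9 CPM in pB2 and 0 and 0 in pB3.

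Called genes that reach 10 CPM in either line were ranked by the fold between their mean CPM in pB3 and pB2. A line with fewer than 3 counts over both libraries was set to 3 counts for this ranking. By this measure, which places genes with no or few counts in the lower line further down, the largest rise belonged to Mmp3, a secreted metalloproteinase, with 0.0741 and 0.265 CPM in pB2 and 371 and 400.4 in pB3 and a log2 fold change of 10.97 ± 0.52 (edgeR adjusted p = 1.49e-09). Behind Mmp3 came Klk6, a secreted serine protease, at 141 and 144 CPM in pB3, and Sema7a, a membrane-anchored semaphorin, at 142 and 154 CPM, both with no more than 3 counts in pB2. The next rises by this measure were Cpq, a carboxypeptidase; Rgs5, a brake on G protein signalling; the membrane protein genes Emp3 and Tmem171; Esm1, which encodes the secreted proteoglycan endocan; Ube2ql1; and Tslp, the cytokine thymic stromal lymphopoietin, with 0.667 and 0.212 CPM in pB2 and 391 and 361 in pB3. In the GRCm38 annotation Mmp3 lies on chromosome 9 from 7445822 to 7455975, Klk6 on chromosome 7 from 43824499 to 43832030 and Sema7a on chromosome 9 from 57940112 to 57962865.

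Falls by the same measure were led by Igfbp5, a binding protein for insulin-like growth factors that rises when mammary tissue regresses, with 4556 and 6271 CPM in pB2 and 5.11 and 2.46 in pB3 and a log2 fold change of -10.48 ± 0.54 (edgeR adjusted p = 3.01e-09). Lcn2, the iron-carrier protein lipocalin 2, fell from 1385 and 1468 CPM to 1.48 and 1.30, and Wfdc18, a small secreted protease inhibitor of the mammary gland, from 626 and 688 to 1.08 and 0.453. The next falls by it were Ntrk2 (the BDNF receptor TrkB), Hp (haptoglobin), Sntb1 (a syntrophin), Tfap2c (a luminal transcription factor, AP-2 gamma), Gsta3 (a glutathione transferase), Ptn (pleiotrophin, a growth factor) and Slc15a2 (a peptide carrier). Igfbp5 lies on chromosome 1 from 72857932 to 72874884, Lcn2 on chromosome 2 from 32384633 to 32388252 and Wfdc18 on chromosome 11 from 83709015 to 83711348.

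**Figure D1:**
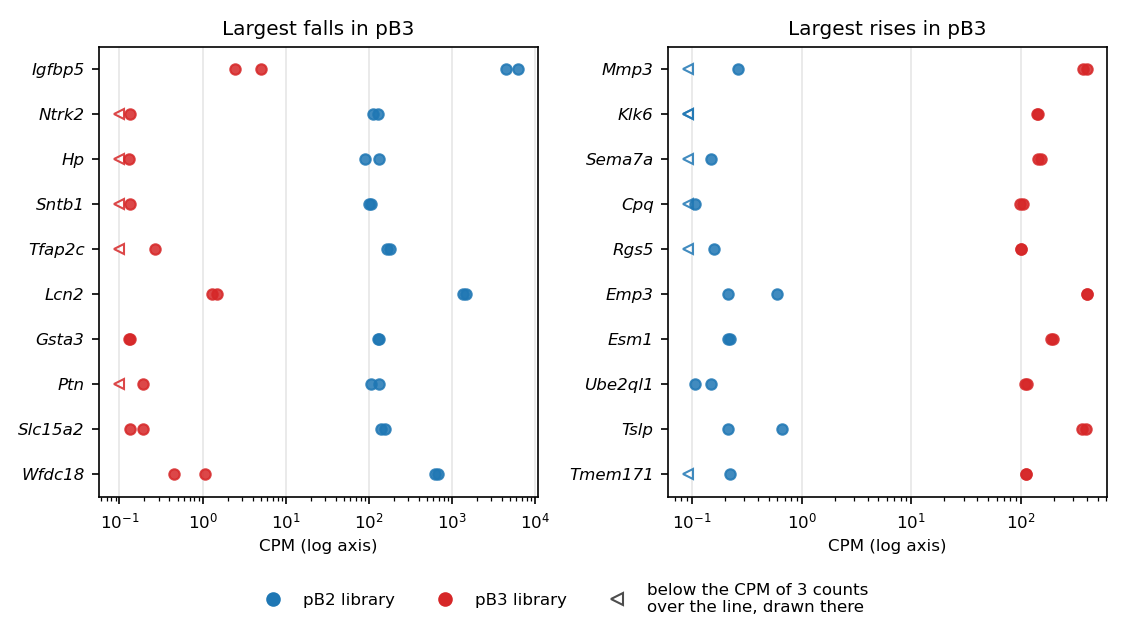
CPM on a log axis in each of the 2 pB2 (blue) and 2 pB3 (red) libraries for the 10 genes with the largest falls (left) and the 10 with the largest rises (right); open triangles stand at the CPM of 3 counts over a line for libraries below it. Replicates lie close together and the lines are far apart for every gene, with Igfbp5 at 4556 and 6271 CPM in pB2 and Mmp3 at 371 and 400.4 in pB3.

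Secreted acute-phase and mucosal proteins fell more often than they rose. Of 35 listed acute-phase and mucosal secretory genes, 20 were tested. Of these, 13 fell, 3 rose and 4 were not called, with a median log2 fold change of -4.74. With the 7 genes of 3 or fewer counts in a line set at their bound, the median was -2.21. Those 7 passed the filter only through other lines, so their direction was nearly fixed. Hp, which binds free haemoglobin, had 134 and 91.1 CPM in pB2 and 0.0672 and 0.130 in pB3, a 1102-fold (95% counting interval 377 to 5348; 3 counts over both pB3 libraries) difference. Slpi, an inhibitor of leukocyte proteases, fell from 110.3 ± 9.49 to 2.31 ± 0.247 CPM (mean ± SD, n = 2 per line, as in all such pairs below). The exceptions included Clu, the extracellular chaperone clusterin, which rose from 56.9 ± 5.79 to 576 ± 41.5 CPM, a log2 fold change of 3.34 ± 0.29 (edgeR adjusted p = 4.47e-07). Lcn2 stood at 3.13 CPM in Epcam hi and 1.78 in 687g, so the high level belonged to pB2 alone among the 4 lines.

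Among 22 genes of milk and lactation, 14 were tested, 7 fell and 5 rose (median -0.55). The falls included the prolactin receptor. Of the 2 tested genes listed as milk proteins, 1 rose and 1 fell. Csn3, kappa-casein, rose from 66.1 ± 3.27 to 198 ± 10.4 CPM, by 1.58 ± 0.32 (edgeR adjusted p = 0.0012) on the log2 scale. The casein genes Csn1s1 and Csn1s2b had 125 and 94 counts over both pB2 libraries and 0 and 1 in pB3. They were called lower, in a direction nearly fixed by the filter, and are not among the named genes counted below. Socs2, a feedback inhibitor of cytokine receptors, rose from 34.9 ± 3.86 to 71.6 ± 2.72 CPM. Regulators of mammary lineages divided evenly, with 13 rises and 13 falls among 30 tested genes of 38. The filter nearly fixed the direction of 9 of the 30, which had 3 or fewer counts in the lower line. The luminal factors Ehf and Foxa1 fell while luminal keratins rose: Ehf, an Ets factor, went from 67.2 and 84.5 CPM to 0.269 and 0, and Foxa1, which opens chromatin for hormone receptors, from 20.04 ± 6.24 to 1.95 ± 0.0978 CPM. Krt18 rose from 212 ± 23.6 to 1975 ± 133 CPM and Krt19 from 6.93 ± 0.170 to 83.0 ± 5.05 CPM. Gata3, a luminal master regulator, also went up, from 4.56 ± 0.9001 to 37.3 ± 0.0940 CPM, a log2 fold change of 3.02 ± 0.26 (edgeR adjusted p = 5.30e-07). Of 16 tested keratins 10 rose and 5 fell (3 without pB3 replicate 2 or either pB2 library). Among the 16 were 5 with 3 or fewer counts in the lower line. Basal genes split as well, with Krt14 falling from 205 ± 25.7 to 14.7 ± 0.387 CPM and Procr, the protein C receptor of a basal progenitor population, rising from 0.254 ± 0.0594 to 46.8 ± 0.264 CPM.

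The largest gain in CPM of any gene was that of S100a6, a calcium sensor, which had 259.7 and 231 CPM in pB2 and 11551 and 11050.0 in pB3, with a log2 fold change of 5.53 ± 0.24 (edgeR adjusted p = 7.43e-10). Of 16 S100 genes in the annotation 13 were tested, 9 rose and 1 fell (median 2.57). S100a4 went from 5.91 ± 0.191 to 859.5 ± 54.9 CPM and S100a10, the partner of annexin A2, from 622 ± 21.4 to 3697 ± 271 CPM. S100a8, a subunit of calprotectin, fell from 74.6 ± 21.2 to 18.2 ± 3.56 CPM. A second S100 gene was called lower without pB3 replicate 2 and with only these 4 libraries. Annexins, which bind membranes in a calcium-dependent way, rose in 6 of 11 cases, led by Anxa1 (319 ± 36.3 to 4223 ± 8.09 CPM) and Anxa2 (422 ± 61.2 to 2219 ± 174 CPM). They fell for Anxa8 and Anxa4, although Anxa4 was not called when any 1 of the 4 libraries was left out. The further genes with the largest CPM gains were Lgals1 (galectin 1), Tmsb4x (the actin-binding thymosin beta 4), Spp1 (osteopontin), Cd9 (a tetraspanin), Igfbp4 and Ctsl (a lysosomal and secreted protease). Ctsl went from 190.2 ± 20.6 to 2713 ± 132 CPM and Tmsb4x from 394 ± 39.7 to 6967 ± 934 CPM. Gm42418, whose locus overlaps ribosomal RNA sequence, was also among them, but its pB3 libraries disagreed, with 5486 and 3875 CPM in pB2 and 18857 and 4771 in pB3. Its adjusted p of 0.0342 in edgeR did not hold in DESeq2, in limma-voom, with total counts, or without pB2 replicate 1, pB2 replicate 2 or pB3 replicate 1, which left a log2 fold change of 0.03.

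Besides Igfbp5, Lcn2 and Igfbp2, the genes with the largest losses in CPM were Scd1, the desaturase that makes monounsaturated fatty acids, at 1600.1 and 1920.4 CPM in pB2 and 317 and 321 in pB3, and a set of genes that most cells express. These were Dbi, which binds acyl-CoA, Ppp1cb (a phosphatase subunit), Pomp (a proteasome assembly factor), Prkar1a (a regulatory subunit of protein kinase A), Bud31 (a splicing factor) and Cenpa (the centromeric histone). Ppp1cb fell from 2488 ± 92.5 to 732 ± 30.4 CPM, a log2 change of -1.76 ± 0.18 (edgeR adjusted p = 2.39e-06). Ppp1cb, Pomp, Bud31 and Cenpa all lie on chromosome 5 and Prkar1a on chromosome 11, where many genes fell, as described at the end. Igfbp2 fell from 1134 and 1051 CPM to 1.55 and 1.30, while Igfbp4 rose from 31.7 and 30.9 to 2722 and 2844, so these binding proteins of insulin-like growth factors moved in opposite directions.

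**Figure D2:**
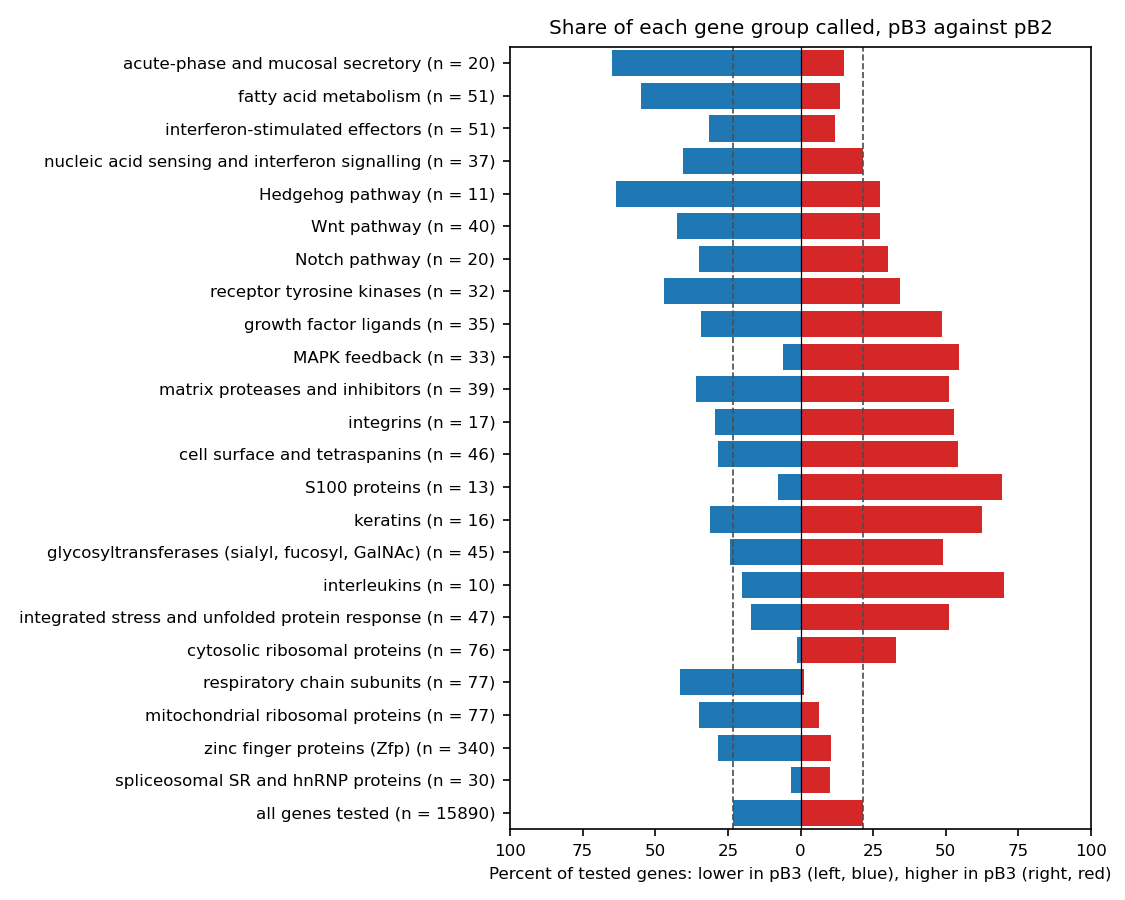
Percent of the tested genes of each group called lower (blue, left) or higher (red, right) in pB3, with the number tested in brackets and dashed lines at 23.2% and 21.6%, the shares over all genes. Acute-phase, fatty acid and respiratory chain genes extend to the left, and S100, keratin, interleukin, surface and MAP kinase feedback genes to the right.

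Growth factor ligands rose more often than they fell, with 17 rises and 12 falls among 35 tested of 46 (median 0.68). Ligands of the EGF receptor stood out by size. Areg (amphiregulin) had 1.63 and 1.01 CPM in pB2 and 318 and 307 in pB3, a log2 fold change of 7.92 ± 0.39 (edgeR adjusted p = 2.06e-09). Btc (betacellulin) went from 1.20 ± 0.0248 to 128 ± 7.24 CPM and Hbegf from 4.54 ± 0.555 to 113 ± 1.41 CPM. Egfr, their receptor, rose from 12.7 ± 2.98 to 45.4 ± 0.913 CPM. Erbb3, a receptor without kinase activity of its own, fell from 18.9 ± 1.74 to 4.65 ± 0.0756 CPM. Pdgfd rose from 0.518 and 0 CPM to 62.0 and 65.1, and Fgf2 from 0.572 ± 0.134 to 28.8 ± 1.55 CPM. Fgf1 fell from 27.3 ± 0.299 to 0.263 ± 0.0864 CPM. Ptn and Gas6, the ligand of the TAM receptors, fell, the latter from 275 ± 10.7 to 3.25 ± 0.894 CPM.

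Receptor tyrosine kinases tilted the other way: of 32 tested among 44, 11 rose and 15 fell (median -0.41). Axl, the TAM receptor that binds Gas6, had 2.67 and 1.27 CPM in pB2 and 1108 and 1129 in pB3 and a log2 fold change of 9.20 ± 0.35 (edgeR adjusted p = 2.77e-10). Styk1, a kinase-like membrane protein, rose from 0.254 ± 0.0594 to 42.6 ± 1.07 CPM. The receptors for insulin (Insr, 13.1 ± 1.93 to 53.7 ± 0.642 CPM) and for insulin-like growth factor 1 (Igf1r, 22.2 ± 6.51 to 139 ± 1.54 CPM) and the hepatocyte growth factor receptor Met (41.9 ± 9.56 to 122 ± 6.18 CPM) also rose. Kit, the stem cell factor receptor of luminal progenitors, had 21.03 and 28.8 CPM in pB2 and 0 and 0.0648 in pB3, a 775-fold (95% counting interval 139 to 30637; 1 count over both pB3 libraries) fall. Its ligand Kitl fell from 173 ± 5.43 to 35.5 ± 0.888 CPM. The fibroblast growth factor receptors Fgfr2 and Fgfr3 fell from 23.4 ± 2.31 to 0.132 ± 0.00347 CPM and from 9.54 ± 0.0855 to 0.166 ± 0.0510 CPM. For the neurotrophins the partners moved apart, since Ntrk2 fell to 0.134 and 0.0648 CPM while its ligand Bdnf rose from 0.408 ± 0.0517 to 40.4 ± 1.74 CPM. Of the 15 receptors that fell, 6 lie on chromosome 5, and elsewhere than on chromosomes 5 and 11 the count was 8 rises and 9 falls.

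Genes that respond to MAP kinase signalling rose far more often than they fell. Of 33 tested genes of 34, 18 rose and 2 fell (4 with total counts or only these 4 libraries, and 1 without pB2 replicate 2, pB3 replicate 1 or pB3 replicate 2), and the median log2 fold change was 1.02. Fosl1, which encodes the AP-1 subunit Fra-1, had 0.0741 and 0.159 CPM in pB2 and 67.6 and 72.1 in pB3, 9.06 ± 0.34 on the log2 scale (edgeR adjusted p = 2.62e-10). Fosb went from 0.191 ± 0.0446 to 20.6 ± 1.38 CPM and Jun from 9.93 ± 1.48 to 61.2 ± 0.726 CPM. The phosphatase genes Dusp5 and Dusp10, which switch MAP kinases off, rose from 5.33 ± 0.417 to 126 ± 4.44 CPM and from 0.863 ± 0.246 to 19.24 ± 1.73 CPM. The rise did not extend to every immediate-early gene: Egr1 fell from 26.6 ± 7.51 to 6.44 ± 0.402 CPM. The Ets factor Etv5, a target of FGF signalling, fell from 53.1 ± 9.88 to 32.1 ± 0.750 CPM, though its call was lost without pB2 replicate 2 or either pB3 library.

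**Figure D3:**
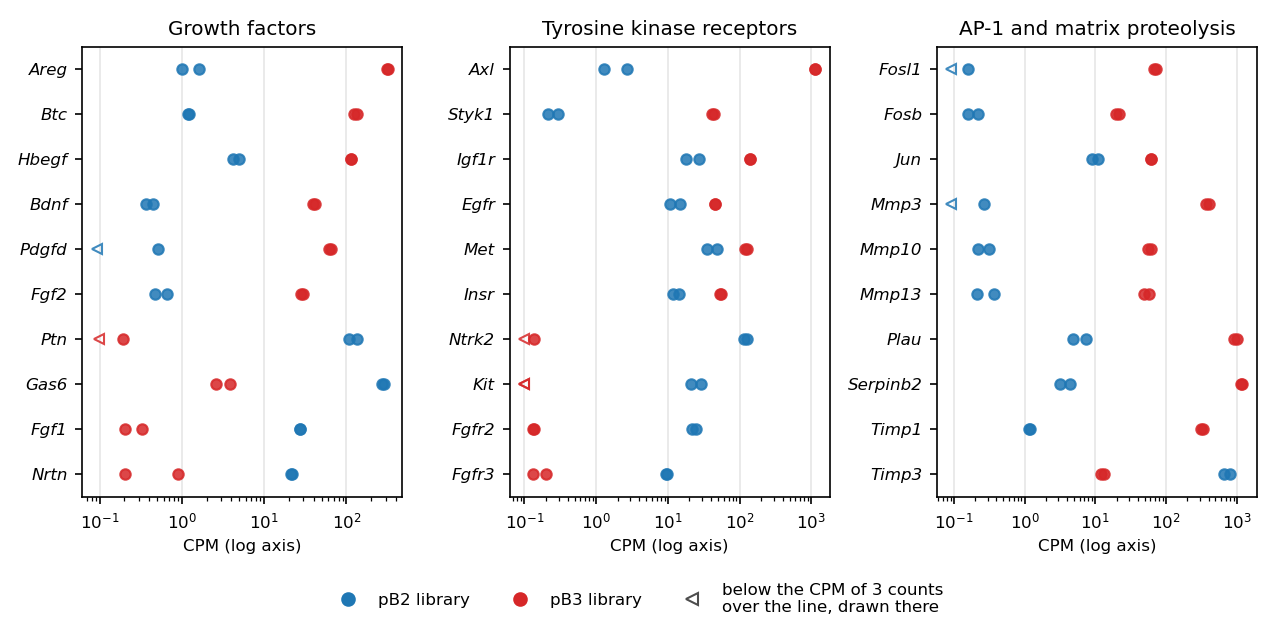
CPM on a log axis in each library for 10 growth factors, 10 tyrosine kinase receptors and 10 genes of AP-1 and matrix proteolysis; blue, pB2; red, pB3; open triangles stand at the CPM of 3 counts over a line. Areg, Axl and Plau are near or above 300 CPM in pB3 and under 10 in pB2, and Ptn, Gas6, Ntrk2, Kit, Fgfr2 and Timp3 show the reverse order.

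Genes of secreted proteolysis changed in both directions, with 17 rises and 13 falls of at least 4-fold. Of 51 listed matrix proteases and inhibitors 39 were tested, 20 rose and 14 fell (median 0.97). Of the 39, 8 had 3 or fewer counts in the lower line, so the filter nearly fixed their direction. Among the 12 tested metalloproteinases 9 rose and 3 fell. Mmp10 went from 0.270 ± 0.0679 to 58.7 ± 3.82 CPM and Mmp13, a collagenase, from 0.291 ± 0.112 to 52.4 ± 5.95 CPM. With Mmp3 they lie in the metalloproteinase cluster on chromosome 9. In the plasmin system 5 of 9 tested genes rose and 3 fell. Plau, the urokinase activator of plasminogen, had 7.33 and 4.88 CPM in pB2 and 925 and 1012 in pB3. Its receptor Plaur went from 4.64 ± 0.488 to 138 ± 7.94 CPM, and its inhibitor Serpinb2 from 3.78 ± 0.839 to 1182 ± 31.1 CPM (log2 fold change 8.30 ± 0.32). The falls were of the protease inhibitor gene Serpine2, from 264 ± 18.0 to 5.54 ± 0.0523 CPM, and of its relatives Serpinb5 and Serpinh1, the latter a chaperone of collagen. Of 4 tested genes listed with the tissue inhibitors of metalloproteinases, 1 rose and 2 fell, Timp3 falling from 728 ± 105 to 12.6 ± 0.789 CPM and Timp1 rising from 1.18 ± 0.0128 to 321 ± 13.8 CPM. Adamts3, which processes procollagen, had 10.7 and 12.5 CPM in pB2 and 0 and 0 in pB3, at least 119-fold lower in pB3.

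The AP-1 site, TGANTCA on either strand, was searched in the RefSeq promoter windows (GRCm38.p6, 250 bases before to 50 after a start). Of the 20 proteases and inhibitors that rose, 12 had a window and 5 held a match: Mmp3, Mmp10, Mmp13, Plaur and Serpinb2. Of the 14 that fell, 9 had a window and 1, Serpinb5, held a match. As 25 of the 39 tested genes (64.1%) had a window, no share over the list is given. A match was present in 7.81% of all 32851 windows. The 200 bases before the start are shown for the 5 genes, read 5′ to 3′ on the strand of the gene, with the match in capitals.
Mmp3: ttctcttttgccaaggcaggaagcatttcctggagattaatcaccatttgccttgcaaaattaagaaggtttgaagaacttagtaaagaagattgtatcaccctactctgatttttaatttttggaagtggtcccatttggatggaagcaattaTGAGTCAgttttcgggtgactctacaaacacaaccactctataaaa
Mmp10: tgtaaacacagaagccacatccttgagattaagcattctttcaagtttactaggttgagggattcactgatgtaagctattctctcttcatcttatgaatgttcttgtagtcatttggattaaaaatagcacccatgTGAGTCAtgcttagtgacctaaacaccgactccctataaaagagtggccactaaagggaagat
Mmp13: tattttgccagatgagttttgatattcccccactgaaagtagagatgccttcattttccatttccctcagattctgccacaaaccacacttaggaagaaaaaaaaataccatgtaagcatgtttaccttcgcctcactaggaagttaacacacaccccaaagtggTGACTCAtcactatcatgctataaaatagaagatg
Plaur: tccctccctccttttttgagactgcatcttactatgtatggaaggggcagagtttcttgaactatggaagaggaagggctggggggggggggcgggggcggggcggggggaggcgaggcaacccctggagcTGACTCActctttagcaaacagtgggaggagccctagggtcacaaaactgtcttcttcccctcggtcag
Serpinb2: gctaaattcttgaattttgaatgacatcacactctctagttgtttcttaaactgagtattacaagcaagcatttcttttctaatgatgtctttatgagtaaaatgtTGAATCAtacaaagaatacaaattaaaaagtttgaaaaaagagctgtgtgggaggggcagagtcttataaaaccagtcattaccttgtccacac
These stretches lie at chr9:7445622-7445821, chr9:7502142-7502341, chr9:7272314-7272513, chr7:24462283-24462482 and chr1:107511223-107511422, all on the plus strand. The last base of the match stood 40 bases before the start in Mmp3, 57 in Mmp10, 29 in Mmp13, 63 in Plaur and 88 in Serpinb2. The 5 genes had means of 52.4 to 1182 CPM in pB3 and of 0.170 to 4.64 CPM in pB2. A match of these letters is a description of the sequence and not evidence of binding. Over the protein-coding genes tested, 80.2% had a window and 6.55% of those held a match. For the genes at least 4-fold higher or lower fewer than 80% had a window (75.6% and 75.9%), so a comparison of their shares is void. The E-box CACCTG, searched in the same windows, was found for 1 of the 12 proteases and inhibitors with a window that rose. Among the 9 with a window that fell it was found for 3. Its share over all windows was 20.2%.

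Kallikrein genes, which encode a cluster of secreted serine proteases on chromosome 7, were hardly detected in pB2: Klk6 had 2 counts over its libraries and Klk7, Klk9 and Klk10 had 0. These genes passed the filter only through other lines, pB3 among them, so a rise was nearly fixed for them. Klk8 had 0.444 and 0.477 CPM in pB2 and 299 and 295 in pB3, a log2 fold change of 9.30 ± 0.35 (edgeR adjusted p = 2.62e-10). The 2 kallikreins above 100 CPM in pB3, Klk6 and Klk8, were at 13.8 CPM in Epcam hi and 1.97 in 687g and at 549.9 CPM in Epcam hi and 12.5 in 687g. Cathepsins gave 5 rises and 2 falls among 10 tested, with 1 of those falls left when either pB2 library or either pB3 library was removed, and Ctsh rose from 46.1 ± 5.31 to 707 ± 38.8 CPM.

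Matrix and adhesion genes changed in both directions within families. Collagens rose in 11 and fell in 6 of 26 tested genes (median 1.18, or 0.95 with the 10 genes of 3 or fewer counts in a line set at their bound). Such genes passed the filter only through other lines, so their direction was nearly fixed. Col4a1, a basement membrane chain, rose from 0.656 ± 0.328 to 294 ± 7.12 CPM and Col8a1 from 0.355 ± 0.127 to 247 ± 20.1 CPM. Col9a1, a cartilage-type chain, had 58.1 and 45.3 CPM in pB2 and 0.0672 and 0 in pB3, a 1536-fold (95% counting interval 275 to 60720.0; 1 count over both pB3 libraries) fall, and Col11a1 fell from 30.1 ± 8.61 to 0.198 ± 0.00520 CPM. Of the laminins, 5 rose and 2 fell of 8. Lama3 rose from 0.614 ± 0.0311 to 17.7 ± 1.72 CPM, but Lamb3, which joins it in laminin-332, fell from 104 ± 15.2 to 23.1 ± 1.59 CPM. Loxl3, which crosslinks collagen, rose from 0.795 ± 0.0764 to 161 ± 9.81 CPM. The small leucine-rich proteoglycans Prelp and Bgn fell, from 57.5 and 71.5 to 0.269 and 0.130 CPM and from 126 ± 20.02 to 2.87 ± 0.0646 CPM. The hyaluronan synthase Has2 (1.67 ± 0.566 to 322 ± 14.3 CPM) rose together with the hyaluronan receptor Cd44 (50.5 ± 4.01 to 1365 ± 23.2 CPM).

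Integrins rose in 9 of 17 tested genes and fell in 5. Itga3, a laminin-binding chain, had 38.4 and 45.9 CPM in pB2 and 1014 and 1024 in pB3, and the collagen-binding chain Itga2 went from 0.281 ± 0.0219 to 52.2 ± 1.06 CPM. Itga8 and Itgb8 fell, from 55.7 ± 4.16 to 6.36 ± 0.626 CPM and 29.9 ± 5.29 to 2.74 ± 0.0253 CPM. Cadherins and protocadherins gave 20 rises and 8 falls among 42 tested of 106 (4 falls without pB2 replicate 2 or pB3 replicate 2). Their median was 1.04, or 0.65 with the 13 genes of 3 or fewer counts in a line set at their bound. The direction of those 13 was nearly fixed by the filter. Cdh6 rose from 0.138 ± 0.120 to 31.0 ± 2.08 CPM and the desmosomal cadherin Dsg2 fell from 51.4 ± 7.81 to 4.38 ± 0.305 CPM. Enzymes that build the sialylated, fucosylated and mucin-type sugars of surface proteins rose in 22 of 45 tested genes and fell in 11. The falls numbered 7 without pB2 replicate 2 or pB3 replicate 2, and the median was 1.01. Of the 45, 9 had 3 or fewer counts in the lower line, so the filter nearly fixed their direction. Gcnt2, the enzyme that branches the I antigen, went from 1.67 ± 0.265 to 68.8 ± 0.500 CPM and Galnt15 from 0.376 ± 0.218 to 30.7 ± 1.39 CPM.

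Guidance molecules of the nervous system, which also steer epithelial cells, changed in both directions with large folds. Of 35 tested semaphorins, plexins, slits and netrin genes, 17 rose and 13 fell. The filter nearly fixed the direction of 7 of the 35, which had 3 or fewer counts in the lower line. Besides Sema7a, Sema3a rose from 0.689 ± 0.451 to 52.5 ± 0.352 CPM. Sema4a fell from 11.7 ± 1.50 to 0.296 ± 0.0389 CPM and Sema3c from 566 ± 63.5 to 24.0 ± 0.304 CPM. Efnb2, a membrane-bound ephrin, had 0.370 and 0.690 CPM in pB2 and 84.7 and 84.7 in pB3, and the receptor Epha2 rose from 23.2 ± 5.24 to 261 ± 0.235 CPM. Epha7 had 27.0 and 35.4 CPM in pB2 and 0.0672 and 0.130 in pB3, a 322-fold (95% counting interval 110.0 to 1565; 3 counts over both pB3 libraries) fall. Eph receptors and ephrins together gave 6 rises and 7 falls of 18.

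The developmental pathways changed member by member. In the Wnt pathway 11 genes rose and 17 fell of 40 tested among 55. The direction of 9 of the 40, with 3 or fewer counts in the lower line, was nearly fixed by the filter. By role, of the 8 tested ligands 5 rose and 2 fell, and of the 18 receptors 3 rose and 9 fell. Wnt5a, a ligand of the route that does not use beta-catenin, had 0.148 and 0 CPM in pB2 and 44.2 and 47.8 in pB3, a 745-fold (95% counting interval 206 to 6154; 2 counts over both pB2 libraries) rise. Its receptor Ror2 had 0 and 0 CPM in pB2 and 10.2 and 11.3 in pB3, at least 116-fold higher. The close relative Wnt5b went the other way, from 56.9 ± 9.14 to 0.427 ± 0.129 CPM, and so did the frizzled receptor Fzd7, from 119.6 ± 20.1 to 6.83 ± 0.320 CPM. Nkd2 and Rnf43, which are induced by and restrain beta-catenin signalling, fell from 97.9 ± 3.64 to 0.433 ± 0.338 CPM and from 10.9 ± 2.83 to 0.492 ± 0.220 CPM. The secreted inhibitor Wif1 had 19.5 and 20.05 CPM in pB2 and 0.0672 and 0.0648 in pB3.

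Notch genes gave 6 rises and 7 falls (4 without pB3 replicate 1) of 20 tested. The receptors Notch1 (164 ± 42.1 to 19.5 ± 0.0466 CPM) and Notch3 (37.5 ± 10.4 to 0.492 ± 0.220 CPM) fell with the target gene Hey1, which had 122 and 100.9 CPM in pB2 and 0.336 and 0.194 in pB3. The ligand Jag1 rose from 0.752 ± 0.0885 to 94.3 ± 0.0420 CPM and the DNA-binding factor Rbpj from 9.75 ± 1.74 to 77.9 ± 2.48 CPM. In the Hedgehog pathway 7 of 11 tested genes fell and 3 rose (median -1.20). The co-receptors Boc and Cdon fell, Boc from 84.8 ± 9.67 to 8.73 ± 1.35 CPM, and the ligand Dhh had 0 and 0 CPM in pB2 and 14.9 and 16.2 in pB3. Of 29 BMP and activin genes 12 rose and 10 fell. The activin subunits Inhbb and Inhba moved in opposite directions. Inhbb had 398 and 465 CPM in pB2 and 5.45 and 4.34 in pB3. Inhba had 1.11 and 1.17 CPM in pB2 and 192 and 179.8 in pB3. Fst, the secreted antagonist follistatin, fell from 86.0 ± 10.5 to 2.60 ± 0.445 CPM. Id2 fell from 212 ± 15.3 to 23.7 ± 0.402 CPM and Id4, another inhibitor of bHLH factors, rose from 0.588 ± 0.00638 to 28.3 ± 0.563 CPM.

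Genes that sense nucleic acids were lower in pB3 more often than higher, while genes that carry interferon signals were divided. Of 37 tested of 41 in the joint list, 15 fell and 8 rose (5 without pB2 replicate 1 or pB3 replicate 2, and 13 with only these 4 libraries). Among the 14 sensors 9 fell and 1 rose, and among the 23 signalling genes 6 fell and 7 rose. Tlr2 fell from 15.6 ± 0.495 to 1.66 ± 0.510 CPM, and Tlr3, a receptor for double-stranded RNA, from 38.0 ± 7.42 to 4.36 ± 0.208 CPM. Jak2, a kinase of cytokine receptors, rose from 18.4 ± 1.59 to 177 ± 3.02 CPM, and Irf8, usually a factor of blood cells, had 0 and 0 CPM in pB2 and 10.96 and 14.6 in pB3. Of 51 tested interferon-stimulated effectors of 69, 16 fell (10 without pB3 replicate 1) and 6 rose, and 29 were not called. The share called was 43.1%, against 44.8% over all genes. Only these 4 libraries gave 25 falls and 10 rises. Rtp4 fell from 19.6 ± 0.525 to 3.67 ± 0.236 CPM and Lgals9 (galectin 9) from 32.8 ± 1.10 to 6.46 ± 0.670 CPM, while the immunity GTPase gene Ifi47 rose from 0.943 ± 0.133 to 19.14 ± 0.316 CPM.

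The core of the interferon response element, GAAANNGAA on either strand with overlapping matches kept, was found in the promoter windows of 21 of 41 tested protein-coding effector genes with a window (51.2%), against 8.29% of protein-coding genes tested with a window and 8.56% of all windows. It was present in 8 of 14 effectors that fell and in 12 of 23 that were not called. The 150 bases before the start are given for Isg15, a ubiquitin-like effector, and Oas1a, an enzyme that responds to double-stranded RNA, as examples with overlapping matches, in capitals.
Isg15: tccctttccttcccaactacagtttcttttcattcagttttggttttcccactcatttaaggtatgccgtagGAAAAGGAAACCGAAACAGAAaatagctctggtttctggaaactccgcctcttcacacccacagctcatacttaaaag
Oas1a: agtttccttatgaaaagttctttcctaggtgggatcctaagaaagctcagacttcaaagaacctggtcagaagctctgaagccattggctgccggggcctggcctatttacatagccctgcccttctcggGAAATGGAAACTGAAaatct
The stretches lie at chr4:156200819-156200968 and chr5:120907526-120907675, both on the minus strand. Isg15 fell from 8.99 ± 1.53 to 3.20 ± 0.131 CPM, a log2 fold change of -1.48 ± 0.32 (edgeR adjusted p = 0.00154), and Oas1a, which has close paralogues that can share reads, had 4.44 and 3.13 CPM in pB2 and 0 and 0.130 in pB3.

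NF-kB genes and inflammatory targets rose in 19 and fell in 10 (6 without pB2 replicate 1 or either pB3 library) of 42 tested genes. Vcam1, an adhesion molecule for leukocytes, had 0.148 and 0 CPM in pB2 and 26.7 and 24.9 in pB3. Tnfaip3, the feedback inhibitor A20, rose from 2.59 ± 0.836 to 52.9 ± 1.48 CPM. The mitochondrial superoxide dismutase Sod2, also a target, fell from 116 ± 16.1 to 37.9 ± 1.04 CPM, and so did the chemokine Cx3cl1, from 109 ± 19.8 to 53.9 ± 0.357 CPM. Interleukins rose in 7 of 10 tested genes and fell in 2, and 3 of the 10 had 3 or fewer counts in the lower line. Il24 rose from 0.334 ± 0.0531 to 57.0 ± 0.603 CPM and Il23a from 0.233 ± 0.120 to 13.5 ± 0.532 CPM, whereas the lymphocyte survival factors Il7 and Il15 fell from 30.5 ± 2.52 to 2.27 ± 0.267 CPM and 12.1 ± 0.164 to 4.30 ± 0.486 CPM. The receptor genes Il18rap (0.265 ± 0.149 to 135 ± 7.09 CPM) and Il1rl1, the receptor of interleukin 33 (0 and 0.0530 CPM in pB2 and 24.2 and 26.9 in pB3), rose. Il15ra fell from 49.1 ± 4.27 to 1.76 ± 0.746 CPM. Thus the ligand and the receptor chain of interleukin 15 fell together.

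Several genes usually read in blood cells were among those seen only in pB3, a choice made after their values were seen: the kinases Syk (11.8 and 13.2 CPM in pB3, 0 in pB2) and Prkcb (12.6 and 11.9 CPM, 0 in pB2), the phosphatase Ptpn22 (0 and 0.159 CPM in pB2 and 13.7 and 13.4 in pB3) and the receptor Clec5a (0 and 0.0530 CPM in pB2 and 33.1 and 29.4 in pB3). Of the 13 leukocyte markers checked above, Fcgr3, an antibody receptor of myeloid cells, was also called higher in pB3, with 0 and 0 CPM in pB2 and 1.41 and 1.17 in pB3, at least 13.9-fold higher. Cd68, the other marker that reached 1 CPM, was not called, and 8 markers, Cd3d, Cd79a, Itgam and Adgre1 among them, were at 0 counts in all 4 libraries. Syk and Ptpn22 were not particular to pB3. Epcam hi and 687g had 24.9 and 7.72 CPM of Syk, 170.5 and 17.5 of Ptpn22, 3.31 and 1.06 of Clec5a, and 0.407 and 0.0894 of Prkcb. Some genes of blood cells went the other way at lower levels. Btla, Ikzf1 and Lcp2 had 179, 51 and 36 counts over both pB2 libraries and 0 in pB3, and are not among the named genes counted below.

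Death receptors changed in both directions. Of 47 tested apoptosis genes 16 rose and 15 fell (15 and 18 with total counts). Fas, the classical death receptor, fell from 23.8 ± 2.41 to 0.926 ± 0.211 CPM. Casp1, the protease of the inflammasome, had 114 and 98.4 CPM in pB2 and 3.70 and 3.30 in pB3, a log2 fold change of -4.92 ± 0.22 (edgeR adjusted p = 8.96e-10). Gsdme, a pore-forming protein, rose from 0.175 ± 0.172 to 26.8 ± 3.87 CPM. The decoy receptors Tnfrsf22 and Tnfrsf23, close paralogues that can share reads, rose from 1.15 ± 0.0503 to 40.5 ± 1.81 CPM and 0.572 ± 0.134 to 45.6 ± 2.04 CPM. Tnfrsf12a, the receptor of TWEAK, rose from 263 ± 32.4 to 1461 ± 19.04 CPM. In the BCL2 family, of 12 tested, 2 rose, 2 fell and 8 were not called.

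Most cell cycle inhibitors of the kinase-binding type were lower in pB3: all 5 of 5 tested genes outside the p53 target list fell. Cdkn1a, an inhibitor of the same type that was listed with the p53 targets, rose, as given below. Cdkn2a, which encodes p16INK4a and p19ARF, had 41.0 and 32.5 CPM in pB2 and 0.269 and 0.130 in pB3, a log2 fold change of -7.48 ± 0.38 (edgeR adjusted p = 2.45e-09). Cdkn2c fell from 96.5 ± 0.205 to 23.3 ± 1.25 CPM. Ccnd2, one of the D cyclins that p16INK4a opposes, had 0.222 and 0.106 CPM in pB2 and 104 and 100.9 in pB3, a rise of 9.29 ± 0.38, and Ccnd1 went from 497 ± 27.0 to 1063 ± 4.88 CPM. Of the 23 tested p53 targets 9 rose and 5 fell, with Cdkn1a (p21) rising from 15.6 ± 0.622 to 54.2 ± 0.725 CPM and Eda2r from 9.73 ± 1.84 to 42.2 ± 2.53 CPM. The whole list gave 12 rises (8 with total counts and 7 without pB2 replicate 2) and 12 falls (17 with total counts) of 38.

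Fatty acid genes fell. Of 51 tested of 55, 28 fell and 7 rose (4 without pB2 replicate 2 or either pB3 library), with a median log2 fold change of -0.71. Oxidation enzymes fell in 12 of 18 and rose in 2. Hadha and Hadhb, the subunits of the mitochondrial trifunctional protein, fell from 425 ± 16.0 to 75.02 ± 2.46 CPM and 26.7 ± 4.59 to 4.86 ± 0.641 CPM. Acox2, a peroxisomal oxidase, fell from 45.8 ± 2.41 to 1.93 ± 0.890 CPM and the coactivator Ppargc1a from 10.4 ± 0.0947 to 0.230 ± 0.0406 CPM. Synthesis enzymes fell in 8 of 16, among them Scd1 and the regulator Srebf1 (173 ± 22.1 to 66.6 ± 6.13 CPM). Lipoprotein lipase, Lpl, went from 18.9 ± 0.380 to 0.0996 ± 0.0493 CPM, a 192-fold (95% counting interval 65.3 to 932; 3 counts over both pB3 libraries) fall. Acsl4, which activates polyunsaturated fatty acids, rose from 348 ± 20.9 to 854 ± 92.6 CPM, and Plin2, the coat protein of lipid droplets, from 180.1 ± 23.3 to 344 ± 20.2 CPM. Hadha and Hadhb lie side by side on chromosome 5, and outside chromosomes 5 and 11 the count was 20 falls and 7 rises of 39.

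Central carbon metabolism gave 11 rises and 17 falls of 51 tested genes, and leaving out 1 library gave 7 to 8 rises and 10 to 12 falls, and total counts 7 and 22. Among members of at least 10 CPM the gluconeogenic enzymes Fbp1 and Pcx fell furthest. Fbp1, fructose-1,6-bisphosphatase, had 42.1 and 34.3 CPM in pB2 and 0 and 0 in pB3, at least 379.7-fold lower in pB3. Pcx, pyruvate carboxylase, fell from 53.6 ± 0.722 to 2.64 ± 0.0694 CPM. Enzymes of the tricarboxylic acid cycle fell in 9 of 21 cases with small changes, such as Idh3a from 606 ± 43.5 to 328 ± 2.18 CPM. Glutamine enzymes rose in 4 of 9, among them Glul, glutamine synthetase, from 11.02 ± 0.0883 to 48.8 ± 2.17 CPM. The lactate carriers Slc16a7 and Slc16a3 moved in opposite directions. Slc16a7 (MCT2) had 35.0 and 37.6 CPM in pB2 and 0 and 0 in pB3, at least 369-fold lower. Slc16a3 (MCT4) had 0.0741 and 0 CPM in pB2 and 16.6 and 20.4 in pB3, a 599.9-fold (95% counting interval 107 to 23737; 1 count over both pB2 libraries) rise.

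Targets of NRF2, the regulator of the antioxidant response, did not move as a unit: of 38 tested of 45, 13 rose, 11 fell and 14 were not called (median 0.10, and -0.09 with total counts). Nqo1, a quinone reductase and a common readout of NRF2, had 278 and 239 CPM in pB2 and 6.05 and 7.13 in pB3, a log2 fold change of -5.29 ± 0.27 (edgeR adjusted p = 2.82e-09). Gsta3 had 133 and 129 CPM in pB2 and 0.134 and 0.130 in pB3. In the same lines Abcc1, an export pump for glutathione conjugates, rose from 25.2 ± 4.30 to 159.9 ± 5.60 CPM, and Nfe2l2, which encodes NRF2, from 53.6 ± 3.02 to 98.9 ± 3.14 CPM. The core of the antioxidant response element, TGACNNNGC on either strand, was found for 11 of 32 tested members with a promoter window (34.4%) against 17.0% of protein-coding genes tested with a window and 12.4% of all windows. Gsta3, the member with the largest fall, holds 1 match, shown in capitals in the 200 bases before its start at chr1:21240385-21240584 on the plus strand.
Gsta3: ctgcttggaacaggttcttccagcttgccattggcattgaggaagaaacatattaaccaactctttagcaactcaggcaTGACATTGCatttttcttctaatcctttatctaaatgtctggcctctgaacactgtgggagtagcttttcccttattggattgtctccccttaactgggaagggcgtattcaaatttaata
The match ends 113 bases before the start.

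Retinoid and aldehyde handling also changed member by member, with 13 rises and 9 falls of 35. Crabp1, a cellular carrier of retinoic acid, rose, with 0.0741 and 0.0530 CPM in pB2 and 26.6 and 27.6 in pB3. Cyp26b1, which breaks down retinoic acid, had 9.26 and 11.8 CPM in pB2 and 0.0672 and 0.130 in pB3. Among nuclear receptors (12 rises, 13 falls of 33) Vdr, the vitamin D receptor, had 106 and 148 CPM in pB2 and 2.02 and 2.07 in pB3. Its target Cyp24a1 fell as well, from 6.56 ± 1.22 to 0.0660 ± 0.00173 CPM. Genes of iron and other metal handling gave 10 rises (6 without pB2 replicate 2) and 7 falls (4 without pB3 replicate 1) of 25. The 14 iron genes among them gave 5 rises and 4 falls. The metalloreductases Steap4 and Steap1 moved in opposite directions. Steap4 fell from 173 ± 9.44 to 0.296 ± 0.0389 CPM and Steap1 rose from 17.4 ± 0.520 to 164 ± 9.82 CPM.

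**Figure D4:**
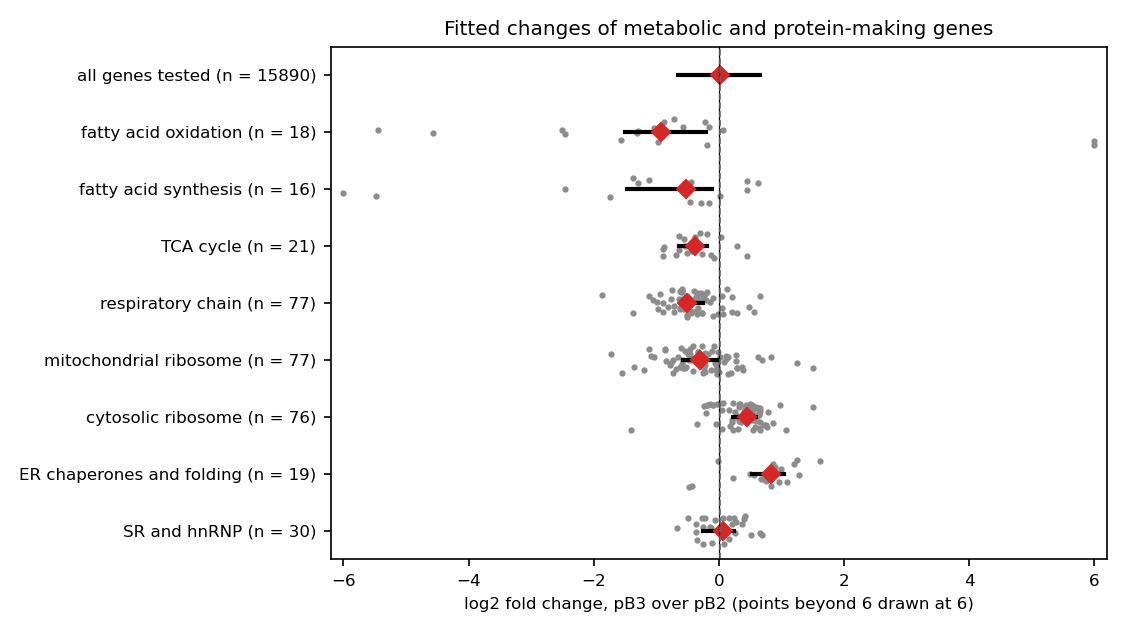
Fitted log2 fold change of each tested gene (grey points) in metabolic and protein-making groups, with the median (red diamond) and the middle 50% of genes (black bar); the dashed line is the median over all genes, 0.02. Fatty acid, tricarboxylic acid cycle and mitochondrial groups lie to the left and ER chaperones and cytosolic ribosomal proteins to the right.

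Machinery for making proteins did not change as a unit. Eukaryotic initiation factors had a median of 0.07, with 13 rises and 8 falls of 51 tested genes (7 and 14 with total counts). Aminoacyl-tRNA synthetases had a median of -0.03, with 5 rises and 7 falls of 34 (3 and 14 with total counts). Leaving out 1 library gave 4 to 6 and 2 to 3 rises. The shares called, 41.2% and 35.3%, lay under the 44.8% over all genes. Endoplasmic reticulum chaperones and folding enzymes rose in 13 of 19 tested genes and fell in 1, a median of 0.83. Hspa5, the chaperone BiP, had 1490.3 and 1190.4 CPM in pB2 and 2470.1 and 2742 in pB3, a log2 fold change of 0.96 ± 0.20 (edgeR adjusted p = 0.00141), and Pdia6, a disulfide isomerase, went from 363 ± 61.9 to 863 ± 62.6 CPM. Targets of ATF4, the factor of the integrated stress response, were mixed. Trib3 fell from 53.5 ± 5.52 to 11.6 ± 2.54 CPM and Chac1 rose from 3.52 ± 0.793 to 12.99 ± 0.685 CPM, although Chac1 was not called without pB2 replicate 1. The whole list gave 24 rises and 8 falls of 47, with 15 to 19 rises and 4 to 5 falls when 1 library was left out.

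Small shifts shared by many members marked the ribosomes and the respiratory chain, and their counts depended on the fit. Of 76 tested cytosolic ribosomal protein genes 25 rose and 1 fell, with a median log2 fold change of 0.45; with total counts 7 rose, 2 fell and the median was 0.25, without 1 library 3 to 7 rose, and with only these 4 libraries 49 rose and 2 fell. Rpl22 rose most, from 645 ± 9.16 to 1820.5 ± 152 CPM. Respiratory chain subunits fell in 32 and rose in 1 of 77 (median -0.50). Total counts gave 57 falls, only these 4 libraries gave 52 falls and 2 rises, and leaving out 1 library gave 10 to 18 falls and no rise. Atp5j2 and Atp5h, subunits of the ATP synthase, fell from 1153 ± 2.13 to 314 ± 8.59 CPM and 448 ± 9.62 to 172 ± 3.18 CPM. Of the falls, 3 lie on chromosome 5 and 1 on chromosome 11. Mitochondrial ribosomal proteins fell in 27 and rose in 5 of 77 (median -0.31; 1 to 3 rises and 10 to 21 falls without 1 library, 3 and 40 with total counts, 11 and 39 with only these 4 libraries). The largest of these falls, Mrps7 and Mrpl58, lie on chromosome 11, which holds 6 of the 27. The shares called were 34.2% of cytosolic ribosomal proteins, 42.9% of respiratory chain subunits and 41.6% of mitochondrial ribosomal proteins, under the 44.8% of all genes. Of 30 splicing factors of the SR and hnRNP families 26 were not called, and the 13.3% called lay under it as well. Total counts gave 1 rise and 6 falls in these families in place of 3 and 1, only these 4 libraries gave 7 and 5, and leaving out 1 library gave at most 1 of each.

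Several transcription factor genes were close to 0 CPM in 1 line and well above it in the other. Tfap2c, the AP-2 gamma factor of luminal cells, had 180.3 and 166 CPM in pB2 and 0.269 and 0.0648 in pB3, a log2 fold change of -9.97 ± 0.34 (edgeR adjusted p = 1.72e-10). Sox2, a pluripotency factor, had 0.0741 and 0 CPM in pB2 and 16.2 and 18.7 in pB3, a 565-fold (95% counting interval 100.9 to 22345; 1 count over both pB2 libraries) rise. Sox11 had 10.1 and 15.6 CPM in pB2 and 0 and 0 in pB3, at least 135-fold lower. Prrx1, a homeobox factor of mesenchyme, rose from 0.117 ± 0.0601 to 77.7 ± 0.291 CPM, while Irx1 and Msx1 fell from 143 ± 8.08 to 28.5 ± 2.98 CPM and 56.8 ± 10.1 to 7.98 ± 0.444 CPM. Klf4 rose from 0.323 ± 0.143 to 26.4 ± 0.0878 CPM and Klf5 from 8.69 ± 0.983 to 39.4 ± 0.942 CPM. Zinc finger genes named Zfp, many of them repressors, rose in 36 and fell in 97 of 340 tested (median -0.27); 50 to 62 fell without 1 library, and 55 rose with only these 4 libraries. Their share of falls, 28.5%, is to be set beside 23.2% over all genes, and their share of rises, 10.6%, beside 21.6%.

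Chromatin proteins and imprinted genes held a few large changes. Hmga2, an architectural protein of embryonic chromatin, had 1.18 and 1.01 CPM in pB2 and 489.8 and 488 in pB3, a log2 fold change of 8.80 ± 0.28 (edgeR adjusted p = 1.37e-10). Hmga1 rose from 4.81 ± 0.0990 to 138 ± 8.27 CPM. The list of DNA methylation and chromatin genes gave 7 rises (11 with only these 4 libraries) and 16 falls of 37, including falls of the methyltransferases Dnmt3a (44.4 ± 9.81 to 16.2 ± 0.741 CPM) and Dnmt3b (5.94 ± 0.0786 to 0.958 ± 0.0718 CPM). Of 27 tested imprinted genes of 46, 7 rose and 10 fell. The paternally expressed Peg3 had 43.0 and 59.1 CPM in pB2 and 0.403 and 0.453 in pB3, and its neighbour Usp29, which shares a promoter region with it, fell from 6.29 and 3.82 CPM to 0 and 0.0648. Sgce, another paternally expressed gene, had 0.0741 and 0 CPM in pB2 and 27.9 and 28.4 in pB3, a 911-fold (95% counting interval 163 to 36006; 1 count over both pB2 libraries) rise. Zfp57, a factor that protects imprints, had 0 and 0.159 CPM in pB2 and 21.4 and 20.9 in pB3.

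Changes were not spread evenly over the chromosomes. On chromosome 19, 197 of 494 tested genes rose (39.9%) and 71 fell (14.4%), with a median log2 fold change of 0.42, against 20.99% and 23.5% and a median of 0.01 over the other numbered chromosomes and X. Among genes that reach 10 CPM in either line the shares on chromosome 19 were 46.5% and 11.6%. The shift ran along the chromosome: all 6 segments of 10 Mb with at least 20 tested genes had a positive median, from 0.10 to 0.58. It was highest in the first 10 Mb, where 91 of 192 genes rose. Most of these rises were modest, as for Ddb1, a DNA repair factor (396 ± 6.50 to 1208 ± 71.7 CPM), and Cfl1, the actin-severing cofilin (260.0 ± 5.94 to 735 ± 33.8 CPM), but Fosl1, Anxa1 and Jak2 lie on this chromosome as well, as do Scd1, Fas and Pcx, which fell. The end of chromosome 4, from 130 Mb on, showed the same tilt, with medians of 0.40, 0.55 and 0.92 in its 3 segments, and 54 of 84 genes rose in the last of them.

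Chromosome 5 was the counterpart, with 437 of 1035 tested genes lower in pB3 (42.2%) and 166 higher (16.0%). Its lowest segments, from 30 to 40 Mb and from 140 to 150 Mb, had medians of -1.58 and -1.51, with 89 of 117 and 78 of 97 genes lower. On chromosome 11 the segment from 110 to 120 Mb had a median of -1.15, and 81 of 120 genes fell there. With chromosomes 5 and 11 left aside, 3034 of 13627 genes rose and 2911 fell. The cause of these differences by position was not tested.

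**Figure D5:**
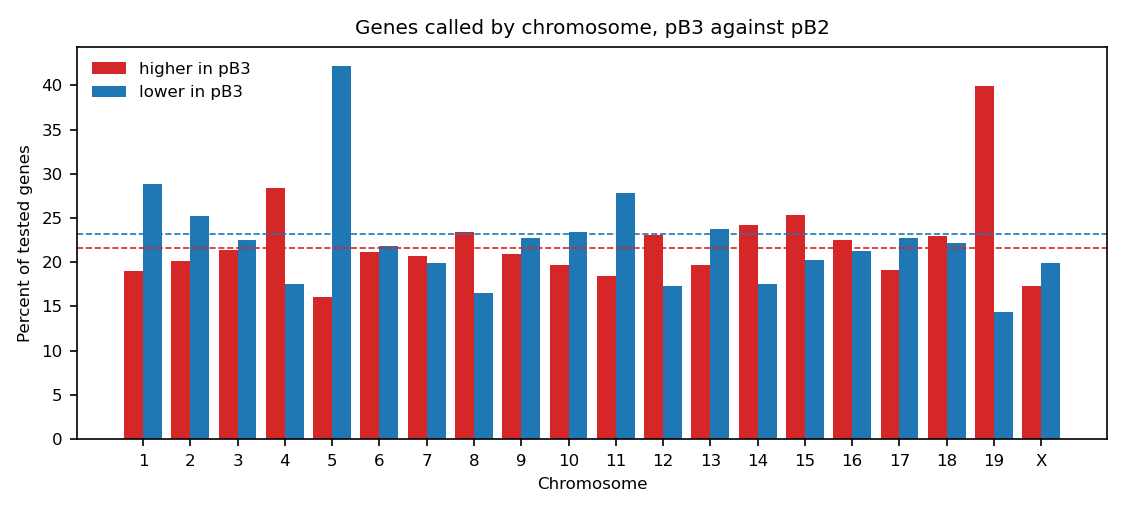
Percent of the tested genes of each chromosome called higher (red) or lower (blue) in pB3, with dashed lines at the shares over all genes, 21.6% and 23.2%. Chromosome 19 has the tallest red bar, 39.9%, and chromosome 5 the tallest blue bar, 42.2%.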

How the data were processed

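Messenger RNA was measured in 8 libraries of 4 mouse mammary carcinoma lines, 2 per line. Whole-number read counts per gene were deposited by the authors; per the series design text the reads were aligned with STAR 2.6.1a to GRCm38 with Ensembl annotation 91 and counted with featureCounts using strand option 2. The authors named DESeq2 as their own test. The counts were tested here with the quasi-likelihood F test of edgeR 4.0.16 (R 4.3.3) after filterByExpr and TMM scaling, with 1 coefficient per line over all 8 libraries and pB3 minus pB2 as the contrast. Adjusted p-values are Benjamini-Hochberg over 15890 genes, and the call threshold was 0.05. CPM values use the TMM-scaled totals, which rest on 12442730 to 16895237 counts per library of this pair. Gene symbols were looked up by gene ID in GENCODE M21, which uses this build.

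A line with 0 counts over both libraries was set to 3 counts for a lower bound of the fold; with 1 to 3 counts the ratio carries an exact 95% Poisson interval. Bounds and intervals cover counting error only. Named by rule were the 10 called genes with the largest fold and the 10 with the largest CPM difference each way, and the 2 members of a list or family with the largest fold each way, among genes of at least 10 CPM; 66 further genes were chosen after their values were seen, and a few selected genes are left out of the text. The gene lists, families and members were chosen with earlier results of these data known. The fit was tested on simulated counts. Alternatives were DESeq2 1.42.0, limma-voom 3.58.1, other scalings and filters, a replicate block, only these 4 libraries, and leaving out each library.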

Additional observations from a re-analysis of the deposited data

How the results depend on the processing

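The directions of the 384 named genes held in each of the alternatives that tested them, and all counts of calls stayed within 1.5 times. Calls higher and lower numbered 3427 and 3689, against 3275 and 3838 with DESeq2's scaling, 2766 and 4591 with total counts, 3591 and 3730 without a filter, 3307 and 3597 with a filter of 1 CPM, 3409 and 3687 with limma-voom, 3140 and 3571 with DESeq2, and 4547 and 4807 with only these 4 libraries. No gene was called in opposite directions. Leaving out 1 library gave 2413 to 2601 higher and 2475 to 2779 lower, and 17 to 20 named genes lost their call, with the lone library assumed to vary like the other lines. A replicate block gave 6995 calls, 3391 higher and 3604 lower. Deviations of same-numbered libraries correlated at -0.0839 over 2 pairs, and the labels do not say that numbers mark a shared batch. Of 174 counts of rises or falls per group, 17 moved by over 1.5 times with total counts, 24 with only these 4 libraries and 35 to 37 when 1 library was left out; the cause was not tested. With 2 libraries per line, 42.6% to 51.1% of simulated 2-fold changes were called. In that simulation 14975 of 15167 genes did not change and all genes shared 1 spread. In the data 44.8% of genes were called, which makes the adjusted threshold easier to reach. The simulated shares therefore do not give the rate at which changes were missed here, though small changes can be missed.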

Other observations

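Channels, carriers and trafficking genes also changed in both directions within families. Aquaporin 5, the water channel of secretory epithelia, fell: Aqp5 had 297 and 257 CPM in pB2 and 4.44 and 4.66 in pB3, while Aqp1 had 0.296 and 0.212 CPM in pB2 and 52.6 and 57.5 in pB3. Solute carriers, a large family, rose in 61 and fell in 79 of 223 tested genes, a share called of 62.8% against 44.8% over all genes. The amino acid carrier Slc38a3 had 34.7 and 38.5 CPM in pB2 and 0.0672 and 0.0648 in pB3. Abcb1a, which encodes a drug efflux pump, rose from 0 and 0.212 CPM to 16.4 and 17.6. The potassium channel gene Kcnk1 fell from 108 ± 0.327 to 5.73 ± 1.06 CPM and its relative Kcnk2 rose from 0.164 ± 0.0821 to 37.0 ± 1.22 CPM. Of 51 tested Rab GTPases, 13 rose (8 without pB2 replicate 1) and 11 fell; Rab27a, which docks secretory vesicles, fell from 27.5 ± 1.23 to 1.59 ± 0.135 CPM, and Rab3b had 0.0741 and 0 CPM in pB2 and 25.2 and 29.9 in pB3. Arhgef28, an activator of RhoA, fell from 534 and 502 CPM to 0.807 and 0.842, and Arhgap22, an inhibitor of Rac, rose from 4.63 ± 0.471 to 120.1 ± 5.85 CPM. Of 16 tested tubulins 4 rose and 4 fell (2 without pB2 replicate 1 or either pB3 library), with Tubb2b going from 0.143 ± 0.0977 to 37.9 ± 0.342 CPM, Tuba1a from 122.6 ± 18.1 to 829 ± 66.3 CPM and Tubd1 from 34.4 ± 2.71 to 10.3 ± 0.663 CPM.

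Surface receptors and coagulation factors changed in both directions as well. Of 46 tested genes of cell surface antigens and tetraspanins 25 rose and 13 fell. Adgra2, an adhesion receptor known from brain vessels, had 0.222 and 0.583 CPM in pB2 and 272 and 273 in pB3, and Adgrg1 fell from 20.3 ± 5.04 to 0.725 ± 0.0743 CPM. Thbd, thrombomodulin, rose from 0.265 ± 0.149 to 94.6 ± 2.74 CPM, whereas F3, tissue factor, fell from 25.5 ± 0.730 to 6.198 ± 0.304 CPM. Of 11 tested genes of complement and coagulation 8 rose and 3 fell. Genes of the placental prolactin family were among those seen in pB3 and not in pB2, picked after their values were seen: Prl2c2 had 0 and 0.0530 CPM in pB2 and 44.1 and 33.6 in pB3 and Prl3d2 had 0 and 0 CPM in pB2 and 33.5 and 28.6 in pB3; these are members of a cluster on chromosome 13 with near-identical copies, so reads can be shared between them. Rhox5, a homeobox gene of the reproductive tract, rose from 0.233 ± 0.120 to 16.9 ± 0.772 CPM. The ligand Ulbp1, which natural killer cells recognise, had 1.11 and 1.59 CPM in pB2 and 199 and 201 in pB3, and Cd200, which restrains myeloid cells, had 169 and 168 CPM in pB2 and 1.01 and 1.75 in pB3.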
